A study of Oryza sativa with 6 samples.

Results

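Late embryogenesis abundant (LEA) genes encode hydrophilic proteins named for their accumulation in embryos as seeds mature and dry. Many LEA genes are also switched on in leaves and roots that lose water, often through abscisic acid, the hormone that signals drought. The proteins are mostly unfolded while hydrated, and they are known for protecting membranes and other proteins during drying. Here 3 rice loci listed as LEA genes, LOC_Os01g12580, LOC_Os03g06360 and LOC_Os03g07180, were followed in roots under water deficiency (WD). They were selected by their locus names from the Rice Genome Annotation Project (RGAP), with earlier results of these data known, and each names 1 of the 63985 entries, or assembled transcript loci, in the deposited tables. Of these entries 58337 name an RGAP locus. The tables hold locus names without descriptions, so membership of the LEA family was not checked against a sequence or an annotation here, and no separate role is given to the 3 loci.

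The plants were 4-week-old seedlings of the japonica rice cultivar Chilbo, grown in pots of soil. WD of 2 d or 3 d, which means that irrigation was withheld for that time, was compared with well-watered control plants of the same growth stage, and all 3 groups were sampled as roots with 2 libraries each, labelled as biological replicates. Several plants shared a pot, and how many went into a library is not stated. The same control group served both times. The values are FPKM, which counts fragments relative to transcript length and to the number of mapped fragments, so levels of different genes can be compared. The authors pooled the 2 libraries of a group into 1 FPKM, so there are no replicates to give a spread, no test was run on any difference, and the depth behind a value is unknown.

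The entries naming LOC_Os03g07180 and LOC_Os03g06360 were close to silent in control roots and abundant in roots under WD. That naming LOC_Os01g12580 stayed under 1 FPKM in every group. Each of the 3 shares its listed start and end with another entry. All 3 loci were under 1 FPKM in control, as were 66.8% of all entries. The 3 loci together summed to 0.553 FPKM in control roots, 772 at 2 d of WD and 825 at 3 d. In whole roots, more cells with the transcript and more transcript in each cell cannot be told apart.

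LOC_Os03g07180, listed on chromosome 3 of the IRGSP 1.0 genome from 3673193 to 3679971, was the most abundant of the loci under WD. Different entries can be listed with the same start and end, so a listed span need not be the extent of the gene named. It had FPKM values of 0.236 in control roots, 732 at 2 d of WD and 747 at 3 d. By level it ranked 52 of 32792 entries above 0 at 2 d and 55 of 32524 at 3 d, whereas in control it ranked 25786 of 34266. The FPKM ratio to control was 3097 after 2 d and 3159 after 3 d, or 11.60 and 11.63 on the log2 scale. Because the control value was under 1 FPKM, the size of these ratios rests on a level near the bottom of the range. With 1 added to each FPKM the ratios were 593 after 2 d and 605 after 3 d. The levels at both times of WD were nearly the same, with a ratio of 1.02 for 3 d over 2 d.

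LOC_Os03g06360, listed on chromosome 3 from 3183490 to 3190051, had the lowest control level of the loci. It had FPKM values of 0.0393 in control roots, 38.7 at 2 d of WD and 77.4 at 3 d. The ratio to control, again against a value under 1 FPKM, was 985 after 2 d and 1968 after 3 d, or 9.94 and 10.94 on the log2 scale. With 1 added to each FPKM it was 38.2 after 2 d and 75.5 after 3 d. Unlike for LOC_Os03g07180, the value at 3 d was well above that at 2 d, by 38.7 FPKM. The ratio of 3 d over 2 d was 2.00, with a log2 value of 0.9990 that lies just inside the limit of 1 used for a change here. Among all entries over 1 FPKM in at least 1 of these groups and above 0 in both, 4.57% were past that limit upward at 3 d over 2 d and 9.78% downward.

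LOC_Os01g12580, listed on chromosome 1 from 6920355 to 6923336, had low values throughout. It had FPKM values of 0.277 in control roots, 0.881 at 2 d of WD and 0.715 at 3 d. The log2 ratio to control was 1.67 after 2 d and 1.37 after 3 d. With 1 added to each FPKM it was 0.56 and 0.43, but such a ratio cannot reach 1 when both values are under 1 FPKM. Whether these levels differ was not tested here. The listed place of LOC_Os01g12580 also held a second entry, XLOC_000512, which carries no gene name. That entry had FPKM values of 7.49e-05 in control roots, 241 at 2 d of WD and 257 at 3 d. A plain ratio is not given for it, since its control value is one of only 5 in the table that are above 0 and under 0.001 FPKM. With 1 added to each FPKM it was 242 times the control level after 2 d and 258 times after 3 d. Summed with XLOC_000512, the place of LOC_Os01g12580 had a log2 ratio of 9.77 after 2 d and 9.86 after 3 d. This sum was chosen after seeing the data, and in control it was under 1 FPKM. Under WD it is nearly all XLOC_000512 and in control nearly all LOC_Os01g12580, so it is the ratio of neither entry. The tables give no strand, and the protocol does not state that strand was kept. Reads of overlapping transcripts at this place therefore cannot be told apart, and neither entry can be assigned to the LEA gene from these values. The same limit on reads holds at the listed places of LOC_Os03g07180 and LOC_Os03g06360, which LOC_Os03g07170 and LOC_Os03g06370 share.

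**Figure D1:**
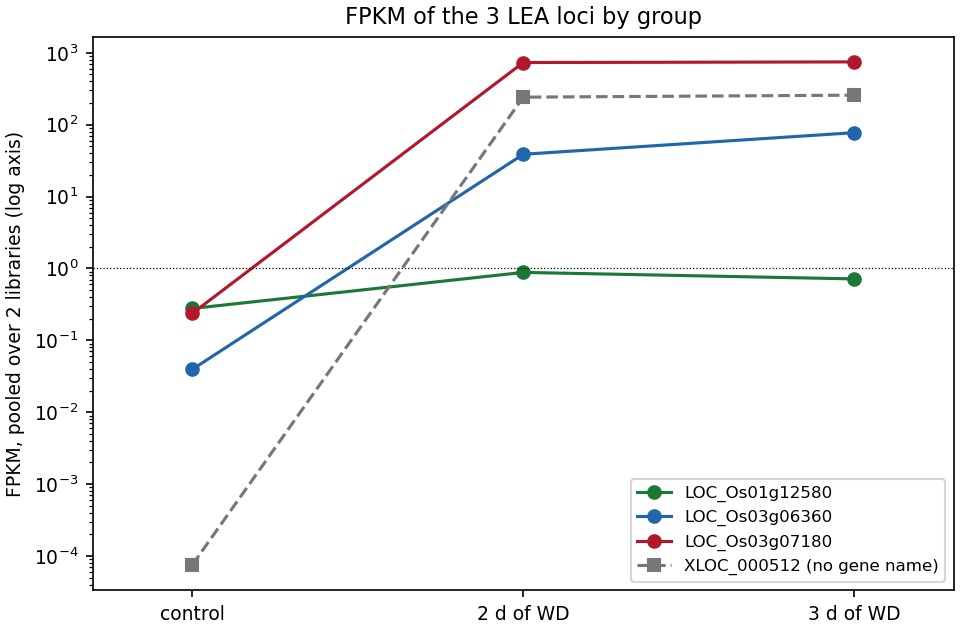
FPKM (log axis) of the 3 LEA loci and of the unnamed entry XLOC_000512 in control, after 2 d and after 3 d of WD. Each point is 1 value that the authors pooled over 2 libraries, lines join the values of 1 entry, and the dotted line marks 1 FPKM. LOC_Os03g07180 reached 747 FPKM and LOC_Os03g06360 reached 77.4 FPKM after 3 d, while LOC_Os01g12580 stayed under 1 FPKM beside an unnamed entry at 257 FPKM.

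The levels were then read against all entries. An entry was counted as up or down when its log2 FPKM ratio was over 1 or under -1, among entries above 0 FPKM in both groups and over 1 FPKM in at least 1 of them. By this rule 15.0% of entries were up and 24.6% down after 2 d against control, and 20.1% were up and 28.3% down after 3 d. LOC_Os03g07180 and LOC_Os03g06360 were up at both times, but both passed the FPKM limit only through their level under WD and so had to differ. LOC_Os01g12580 did not pass the limit. The study used a limit of 4 FPKM. With that limit applied in both groups, none of the 3 loci could be compared (0 of 3), while 10.4% of entries were up and 11.8% down after 2 d, and 16.2% were up and 13.2% down after 3 d.

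Another background is the set of 42741 entries under 1 FPKM in control, to which all 3 loci belong. Among these, 0.253% were over 30 FPKM after 2 d and 0.281% after 3 d, and LOC_Os03g06360 was one of the 99 over 30 FPKM at both times. Over 700 FPKM were 0.0187% after 2 d and 0.0281% after 3 d, with LOC_Os03g07180 among the 8 entries over this level at both times. Of those 99 and 8 entries, 33 and 2 name no gene. The levels of 30 and 700 FPKM were set with the values of the loci known, so the counts only describe how rare such levels were. Ranks by ratio to control were taken in another set, the 22412 entries compared at 2 d and 22312 at 3 d by the rule above. There LOC_Os03g07180 ranked 20 and 25 after 2 d and 3 d, and LOC_Os03g06360 ranked 59 and 41. Both loci enter that set only through their level under WD, so these ranks only describe the size of the ratios.

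**Figure D2:**
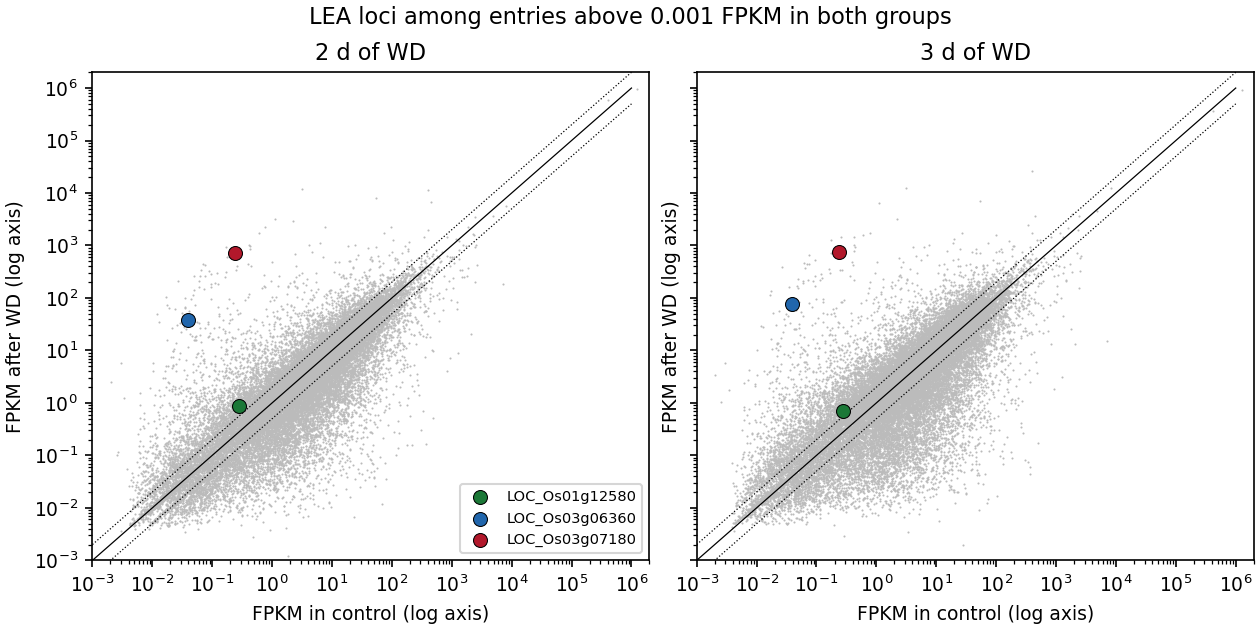
FPKM after WD (vertical log axis) against FPKM in control (horizontal log axis), after 2 d on the left and 3 d on the right, for entries above 0.001 FPKM in both groups (grey) and the 3 LEA loci (coloured). The solid line marks equal levels and the dotted lines a 2-fold difference. LOC_Os03g07180 and LOC_Os03g06360 lie far above the body of entries at both times, and LOC_Os01g12580 lies inside it.

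The 4 entries nearest to each locus were then compared with it. On chromosome 3 all of them had smaller ratios to control than the LEA locus, though some were up as well. With 1 added to each FPKM, the log2 ratio of LOC_Os03g07180 was 9.21 after 2 d and 9.24 after 3 d, and that of LOC_Os03g06360 was 5.26 and 6.24. LOC_Os03g07170, listed at the same coordinates as LOC_Os03g07180, had FPKM values of 2.19 in control roots, 3.86 at 2 d of WD and 4.51 at 3 d, with log2 ratios of 0.81 and 1.04. LOC_Os03g07160, on the near side of it, had a log2 FPKM ratio of 0.21 after 2 d and 0.38 after 3 d. On the far side, LOC_Os03g07190 was up at both times, at 3.09 FPKM in control roots, 13.0 at 2 d of WD and 19.9 at 3 d, and its neighbour LOC_Os03g07200 had log2 FPKM ratios of -0.50 and -0.67.

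Around LOC_Os03g06360, the entry listed with the same start and end was LOC_Os03g06370. It had FPKM values of 2.70 in control roots, 3.45 at 2 d of WD and 6.82 at 3 d, with log2 ratios of 0.35 and 1.34. LOC_Os03g06400 was up at both times, at 0.940 FPKM in control roots, 3.79 at 2 d of WD and 13.5 at 3 d. LOC_Os03g06379, from the same coordinates as LOC_Os03g06400, had log2 FPKM ratios of -0.22 and 0.03, and LOC_Os03g06350 stayed under 1 FPKM in all groups. The rise from 2 d to 3 d was not particular to LOC_Os03g06360, with its log2 ratio of 0.9990. For 3 d over 2 d, LOC_Os03g06370 had 0.98 and LOC_Os03g06400 had 1.83, while LOC_Os03g06379 and LOC_Os03g06350 had 0.25 and 0.22. Around LOC_Os01g12580, XLOC_000512 was the only 1 of the 4 nearest entries over 2 FPKM in any group.

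**Figure D3:**
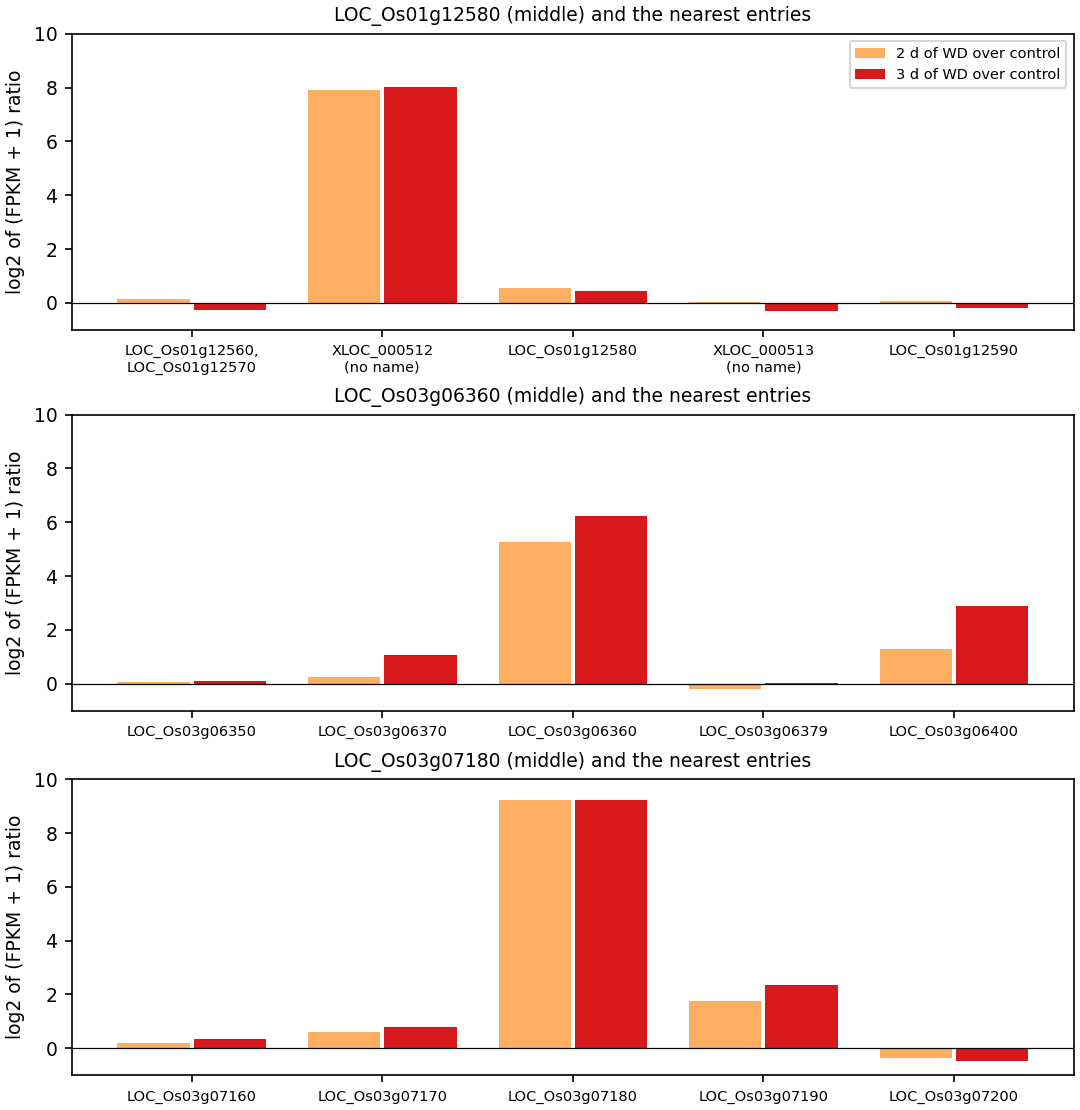
Log2 of the (FPKM + 1) ratio to control after 2 d (orange) and 3 d (red) of WD, for each LEA locus in the middle and the 2 nearest entries on each side in their order along the chromosome (horizontal axis, not to scale). LOC_Os03g07180 and LOC_Os03g06360 stand above all their neighbours, while the high bars beside LOC_Os01g12580 belong to the unnamed entry at the same coordinates.

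Entries with the most similar pair of log2 ratios (2 d and 3 d over control) were sought among 15975 entries that name a single locus, by the straight distance between the pairs. Likeness here rests on 3 group values that share 1 control. Nearest to LOC_Os03g07180 was LOC_Os05g03130, at a distance of 0.19, with 0.0596 FPKM in control roots, 161 at 2 d of WD and 190.4 at 3 d. LOC_Os02g32469 and LOC_Os04g43950 followed at 0.23 and 0.24. Nearest to LOC_Os03g06360 was LOC_Os01g53860, at a distance of 0.15, with 0.441 FPKM in control roots, 405 at 2 d of WD and 939.9 at 3 d. Like LOC_Os03g06360 it was about 2-fold higher after 3 d than after 2 d, with a log2 ratio of 1.21. LOC_Os01g65440 and LOC_Os01g45020 came next, at 0.21 and 0.38. For LOC_Os01g12580 the nearest were LOC_Os01g13390, LOC_Os07g37850 and LOC_Os03g16700, at distances of 0.04 each, of which LOC_Os03g16700 was the only one with high levels (67.6 FPKM in control roots, 212 at 2 d of WD and 179 at 3 d). Of these 9 nearest entries, all but LOC_Os05g03130 and LOC_Os01g13390, or 7, lie in stretches of their chromosomes where locus names are often shared between entries, so their names are less certain than their values.

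The locus names themselves need care. Along each chromosome a position can be found after which entries more often share their gene name with another entry, and names past it were less unique. Whether names past it mark the genes that the reads came from was not tested. The 3 LEA loci lie before this position, at 10147325 on chromosome 1 and 4921375 on chromosome 3. The share of expressed named entries with a shared name was 9.13% before and 40.4% after it on chromosome 1, and 6.87% before and 40.2% after it on chromosome 3. LOC_Os01g22490, the study's internal control for qRT-PCR (OsUbi5, a ubiquitin gene), lies after it and had FPKM values of 0.379 in control roots, 0.290 at 2 d of WD and 0.265 at 3 d. The study's drought markers also lie after it. The entry naming OsDREB2b (LOC_Os05g27930), a dehydration-responsive transcription factor, names a further locus too and had log2 ratios of 0.38 after 2 d and 0.59 after 3 d, and that naming OsbZIP23 (LOC_Os02g52780), a transcription factor of abscisic acid signalling, had -0.83 and -0.40. Neither was past the limit of 1. As a check of tissue, 10 loci taken as root or leaf markers from general knowledge were looked up, and 8 of their 11 entries lie after these positions, so the label of root was not settled by them. The summed FPKM of the 5 root loci was 928 in control roots, 15.8 at 2 d of WD and 11.7 at 3 d, and LOC_Os03g01700 alone gave 921 of the control sum. For the 5 leaf loci the sum was 9.86 in control roots, 14.4 at 2 d of WD and 17.8 at 3 d. At 3 d it stood above the root sum. The fall of the root sum rested on LOC_Os03g01700. LOC_Os02g02170 and LOC_Os02g02190 went from 0.0793 and 0.0815 FPKM in control to 0. The entries of LOC_Os02g44310 rose, from 6.92 and 0.311 FPKM in control to 8.83 and 1.03 at 3 d. The leaf rise rested on LOC_Os01g41710 and the entry naming LOC_Os09g17740, while LOC_Os12g19470 fell from 0.152 to 0.0463 FPKM at 3 d. Whether these loci themselves respond to WD was not tested. In all groups 1 root and 2 leaf loci were at 0. The part of tissue make-up in the values of the LEA loci was not tested.

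A list of 13 further loci, taken as LEA or dehydrin genes (a LEA group with its own conserved lysine-rich segment) from general knowledge of rice and from the study's tables, gave 14 entries, and 14 of these lie after the position where shared names become frequent, so these values may not be those of the genes named. Of the 14 entries, 6 were listed at 0 in all 3 groups and 7 could be compared at each time. After 2 d 1 of the 7 was up and 1 down, beside 15.0% up and 24.6% down over all entries compared. After 3 d 1 was up and 2 were down, beside 20.1% and 28.3%. These shares are near the background and are no result about the list. The median log2 FPKM ratio of the 7 was -0.46 after 2 d and -0.65 after 3 d, beside -0.02 and -0.01 over all entries compared. The entries of the list under 1 FPKM in control were also under 1 FPKM at both times of WD.

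The tables of the study annotate only a pair of these loci, and both were picked there from genes that changed in the same data. The entry naming LOC_Os12g43140, described there as a LEA protein, names a further locus too and had FPKM values of 507 in control roots, 266 at 2 d of WD and 81.8 at 3 d. On the log2 scale this was a ratio to control of -0.93 at 2 d and -2.63 at 3 d, so the entry was down at 3 d. LOC_Os04g53650, placed there in a LEA class although described as a harpin-induced protein, had FPKM values of 20.5 in control roots, 40.7 at 2 d of WD and 63.1 at 3 d. On the log2 scale its ratio to control was 0.99 at 2 d and 1.62 at 3 d, past the limit at 3 d. The share of the FPKM sum held by the 3 LEA loci, leaving out the 2 entries with the highest control FPKM, was 0.00011% in control, 0.142% after 2 d and 0.142% after 3 d. The 2 entries left out held 76.6% of the full FPKM sum in control, 73.9% after 2 d and 69.0% after 3 d.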

How the data were processed

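The authors checked 100-bp paired-end reads with FastQC, trimmed them with Cutadapt and Trim Galore, aligned them to the IRGSP 1.0 genome with TopHat, used RGAP gene features and ran Cuffdiff. The deposited FPKM values are 1 per group and entry, pooled by the authors over 2 libraries, and 0 columns per library were used. For the versions and the scaling of libraries, the sources used here give nothing. The tables also hold the authors' own log2 fold changes, test statistics, p-values and q-values, which were not used. Group values repeated between the tables were identical.

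Log2 ratios were computed without a pseudocount. Listed starts were raised by 1 to count from 1. The 3 loci and all lists were chosen with earlier results of these data known, and marker and LEA lists rest on general knowledge. Named genes are the 3 loci, the lists, the 2 nearest entries on each side, and the 3 nearest patterns per locus. The position after which shared names are more frequent is the best single split of entries over 1 FPKM in any group that name a locus, with at least 30 on each side, and only this direction was allowed. No sequence was printed, since the reference table used here, of assembly ASM3414082v1, pairs no RGAP locus with a sequence. Counting, likeness and split were tested on simulated data. Python 3.11.15, pandas 2.3.3, numpy 2.4.6 and matplotlib 3.10.9 were used. Alternatives were other pseudocounts, scalings, FPKM limits and sums over entries.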

Additional observations from a re-analysis of the deposited data

Results flagged for a closer look

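The unnamed entry XLOC_000512, at the listed coordinates of LOC_Os01g12580, drew attention as a signal outside the named LEA entries. Its FPKM was 7.49e-05 in control roots, 241.5 at 2 d of WD and 257.4 at 3 d. Of the 5463 entries without a gene name, 451 (8.26%) share their listed coordinates with an entry naming a locus. Of these, 3 were under 1 FPKM in control and over 200 FPKM at both times of WD. Over all entries 30 met this rule, or 0.0702% of the 42741 under 1 FPKM in control, and 9 of the 30 name no gene. Which transcript its reads came from was not tested.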

How the results depend on the processing

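Over the planned pseudocounts, scalings and sums, 60 of 63 recomputed log2 ratios of the 3 loci stayed on their side of 1. This count includes sums over the entries naming a locus, which could not move a ratio because each of the 3 loci has 1 entry. The scalings moved each log2 ratio to control by at most 0.52. They could therefore not bring LOC_Os03g06360 or LOC_Os03g07180 down to 1 against control. With 1 added to each FPKM, LOC_Os01g12580 was at 0.56 after 2 d and 0.43 after 3 d, against 1.67 and 1.37. That setting had to bring it under 1, since all its values are under 1 FPKM. Relative to LOC_Os01g22490, itself under 1 FPKM, LOC_Os03g06360 was at 1.13 for 3 d over 2 d, against 0.9990. The 3 d over 2 d value of LOC_Os03g07180, 0.03, went from -0.07 to 0.16. The lowest values against control came with 1 added, at 5.26 after 2 d and 6.24 after 3 d for LOC_Os03g06360, and 9.21 and 9.24 for LOC_Os03g07180. The sum of XLOC_000512 and LOC_Os01g12580 was chosen after seeing the data. The median log2 ratio of entries over 4 FPKM in both groups was 0.08 after 2 d, 0.17 after 3 d and 0.06 for 3 d over 2 d.

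Counts of entries up and down were 3358 and 5508 after 2 d, 4477 and 6308 after 3 d, and 934 and 1999 for 3 d over 2 d. With FPKM over 4 in both groups, which leaves fewer entries, they were 1216 and 1381, 1799 and 1466, and 289 and 420. For 3 d over 2 d they were 2490 and 3937 with no limit but FPKM above 0, and 392 and 1047 with 1 added.

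On the list of LEA and dehydrin loci, 1 entry was up and 1 down after 2 d. With 1 added 0 were up, and with entries summed by locus 0 were down. With FPKM over 4 in both groups 1 was down after 3 d against control, against 2, and 1 for 3 d over 2 d, against 2.

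No paired analysis was possible because the authors pooled the libraries of each group. A replicate block and leaving out a library were not run for this reason. The unknown depth limits every value under 1 FPKM, including the control level of all 3 loci.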

Other observations

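Other entries shared the pattern of near silence in control and high FPKM under WD, some of them close to these loci or to each other. LOC_Os01g12660, listed on chromosome 1 from 6966627 to 6976710, had FPKM values of 0.415 in control roots, 119 at 2 d of WD and 222 at 3 d. In all, 46 entries were under 1 FPKM in control and over 100 FPKM at both times of WD, and 8 of them are on chromosome 11. The share of all entries on chromosome 11 was not counted, so the 8 are no result about it. On it, 5 such entries lie between 17465795 and 17489555, 2 without a gene name, 2 naming LOC_Os11g30050 and 1 naming LOC_Os11g30060. The 2 naming LOC_Os11g30050 have the same listed start and end, so they are not separate places. Those naming LOC_Os11g30050 were at 0.254 and 0.0480 FPKM in control, 607 and 115 FPKM after 2 d and 1422 and 171 FPKM after 3 d, and that naming LOC_Os11g30060 had FPKM values of 0.172 in control roots, 946 at 2 d of WD and 1293 at 3 d. The entries on chromosome 11 lie where locus names are often shared, so their names are uncertain. All these entries were chosen after their values were seen, and what they encode was not analysed here.

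LOC_Os03g01700, looked up as a root marker and before the position where shared names become frequent, had FPKM values of 921 in control roots, 7.18 at 2 d of WD and 1.85 at 3 d. Its log2 ratio to control was -7.00 at 2 d and -8.96 at 3 d. It was singled out after its values were seen, and the entry is listed on chromosome 3 from 416716 to 432878. Whether the fall came from tissue make-up or from a response of the gene to WD was not tested.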
